A study of Mus musculus with 14 samples.

Results

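Expression of 9 acute phase protein genes was followed across mouse gut, intestinal adenomas and a colon carcinoma line, out of 36282 genes named on the arrays. They were *Saa1*, *Saa2*, *Saa3*, *Lrg1*, *Lcn2*, *Hp*, *Orm1*, *Orm2* and *C3*, each read from the array probes that carry its name. They were picked from values of these same arrays, because *Saa1* and *Saa2* were high in colon and *Lrg1* was high in adenomas. The levels of *Saa1* and *Saa2* in colon and of *Lrg1* in adenomas are therefore given as a description, and no test is given for them in any comparison that holds that tissue.

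The RNA came from healthy small intestine of C57BL/6J mice (3 arrays), colon of C57BL/6J mice (3), adenomas of *Apc* Min/+ mice (3), tissue adjacent to adenomas of *Apc* Min/+ mice (2) and CT26 cells (3). *Apc* Min/+ mice carry a truncating germline allele of *Apc*, the tumour suppressor that restrains Wnt signalling, and form adenomas mainly in the small intestine. CT26 is a colon carcinoma cell line of BALB/c origin. By the sample list of the study, all adenoma and adjacent pieces came from 1 *Apc* Min/+ mouse, so their spread is that between pieces of tissue of 1 animal. The same list puts 1 colon sample under an *Apc* Min/+ mouse, whereas the labels give C57BL/6J for all colon samples.

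Acute phase proteins are plasma and tissue proteins whose genes respond to injury and infection. In the liver, interleukin-6 acts through STAT3, and interleukin-1 and tumour necrosis factor act through NF-kB and C/EBP factors, to switch these genes on. Epithelial cells, macrophages, neutrophils and adipocytes also make several of them. In the gut, serum amyloid A proteins are made by epithelium in contact with bacteria, and lipocalin 2 withholds iron from bacteria by binding their siderophores.

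All arrays measured 55681 probes that were not controls, and between 46.8% and 58.2% of the probes on an array were well above background. Values are log2 signals minus the 75th percentile of the array, called the scaled signal below, so that 0 is the brightness below which 75% of probes lay. The arrays lay on 2 slides. Colon replicate 3 stood apart. Correlations between arrays were taken over the probes well above background on all 14 arrays. Colon replicate 3 correlated at 0.938 and 0.934 with the other colon arrays, which correlated at 0.985 with each other, and at 0.951 to 0.969 with the 3 small intestine arrays. The median scaled signal of 12 markers of small intestinal enterocytes was 5.91 on it, against -2.71 and -2.02 on the other colon arrays and 5.91 to 7.42 in small intestine. Values without this array stand beside many of the colon results below, but not beside all. Of the 8 epithelial markers, *Epcam*, *Cdh1*, *Krt19*, *Vil1* and *Elf3* were not well above background on any CT26 array. Each CT26 array had 2 to 3 of the 8 above background, and the log2 of the list's summed signal was 4.93 to 5.78 there. The tissue arrays had all 8 epithelial markers above background.

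The probes of the serum amyloid A genes are shown first because these genes are close relatives, and *Saa1* and *Saa2* were highest in colon but *Saa3* in adenomas. Each probe has 60 bases, and for *Saa2* only the first 30 are given. The longest run of bases shared by the probes of any 2 of the 9 genes was 8. Probes were compared with each other only, and whether a probe also matches the transcript of a related gene was not checked. In the mm9 build named by the scanner files, the probes lie on chromosome 7 at 53996070 to 53996129 for *Saa1* (minus strand), 54009622 to 54009681 for *Saa2* (plus strand) and 53970389 to 53970448 for *Saa3* (minus strand). The probe of *Lrg1* lies on chromosome 17 at 56259257 to 56259316, that of *Lcn2* on chromosome 2 at 32240199 to 32240258 and that of *Hp* on chromosome 8 at 112099045 to 112099104. *C3* was read from chromosome 17 at 57343416 to 57343475, *Orm1* from chromosome 4 at 63006483 to 63007090 and *Orm2* from chromosome 4 at 63024979 to 63025038. Whether these positions are coding or untranslated was not analysed here.
Saa1 probe: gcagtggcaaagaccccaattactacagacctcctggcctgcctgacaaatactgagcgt
Saa2 probe, first 30 bases: ttactcgagcagtagtaactgcttgaggag
Saa3 probe: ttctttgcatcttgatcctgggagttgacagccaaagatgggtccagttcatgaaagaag

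The promoters of 5 genes follow, as the 250 bases before the start site in RefSeq (GRCm38.p6), because *Saa1* and *Saa2* moved together in colon while *Saa3*, *Lrg1* and *Lcn2* were highest in adenomas. Capitals mark matches to the C/EBP motif TTGCNNAA on either strand.
Saa1 promoter, chr7:46742981-46743230, minus strand: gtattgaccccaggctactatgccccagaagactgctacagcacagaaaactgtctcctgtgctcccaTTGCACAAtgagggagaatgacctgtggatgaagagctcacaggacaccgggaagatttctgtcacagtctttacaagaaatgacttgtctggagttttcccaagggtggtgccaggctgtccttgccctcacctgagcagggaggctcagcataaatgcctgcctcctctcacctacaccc
Saa2 promoter, chr7:46751583-46751832, plus strand: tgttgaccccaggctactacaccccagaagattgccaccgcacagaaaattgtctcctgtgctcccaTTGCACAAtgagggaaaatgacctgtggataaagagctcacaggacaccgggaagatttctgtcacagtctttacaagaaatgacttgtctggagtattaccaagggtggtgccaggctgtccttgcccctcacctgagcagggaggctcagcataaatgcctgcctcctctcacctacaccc
Saa3 promoter, chr7:46715677-46715926, minus strand: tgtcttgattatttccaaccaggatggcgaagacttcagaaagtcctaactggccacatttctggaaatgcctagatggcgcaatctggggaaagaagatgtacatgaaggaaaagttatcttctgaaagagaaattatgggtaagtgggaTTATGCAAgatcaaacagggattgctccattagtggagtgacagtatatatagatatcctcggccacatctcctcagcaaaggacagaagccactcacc
Lrg1 promoter, chr17:56121947-56122196, minus strand: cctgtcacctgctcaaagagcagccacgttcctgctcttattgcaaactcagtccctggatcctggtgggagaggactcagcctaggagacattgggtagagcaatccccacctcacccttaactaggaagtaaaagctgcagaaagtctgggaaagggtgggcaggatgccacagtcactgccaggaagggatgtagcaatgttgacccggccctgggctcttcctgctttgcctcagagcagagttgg
Lcn2 promoter, chr2:32387740-32387989, minus strand: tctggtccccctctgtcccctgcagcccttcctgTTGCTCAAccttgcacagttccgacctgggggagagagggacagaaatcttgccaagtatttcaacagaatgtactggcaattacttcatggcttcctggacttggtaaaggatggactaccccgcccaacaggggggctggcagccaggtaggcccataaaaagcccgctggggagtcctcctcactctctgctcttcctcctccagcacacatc

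The *Saa1* and *Saa2* promoters were nearly the same sequence. They matched at 238 of 251 aligned positions (94.8%), and their start sites lie 8853 bases apart and point away from each other. The *Saa3* promoter matched that of *Saa1* at 52.2% of aligned positions, a share within the 49.0% to 54.5% of the remaining promoter pairs, and its start site lies 27304 bases from that of *Saa1*. RefSeq windows were found for 7 of the 9 genes, and *Hp* and *Orm1* had none in the table used. The C/EBP motif was present in 6 of these 7 windows, against 9.56% of all 32851 promoter windows of the same length. It lay 182 to 175 bases before the start in *Saa1*, 183 to 176 in *Saa2*, 99 to 92 in *Saa3* on the opposite strand, 216 to 209 in *Lcn2*, 120 to 113 in *Orm2* and 45 to 38 in *C3*. *Lrg1* had no such match. The STAT motif TTCNNNGAA and the NF-kB consensus, held by 7.02% and 7.25% of all windows, were not found in these 7, and TATAAA, held by 12.4%, was found in *Orm2* alone. A match in letters is a description of the window and was not tested for binding.

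**Figure D1:**
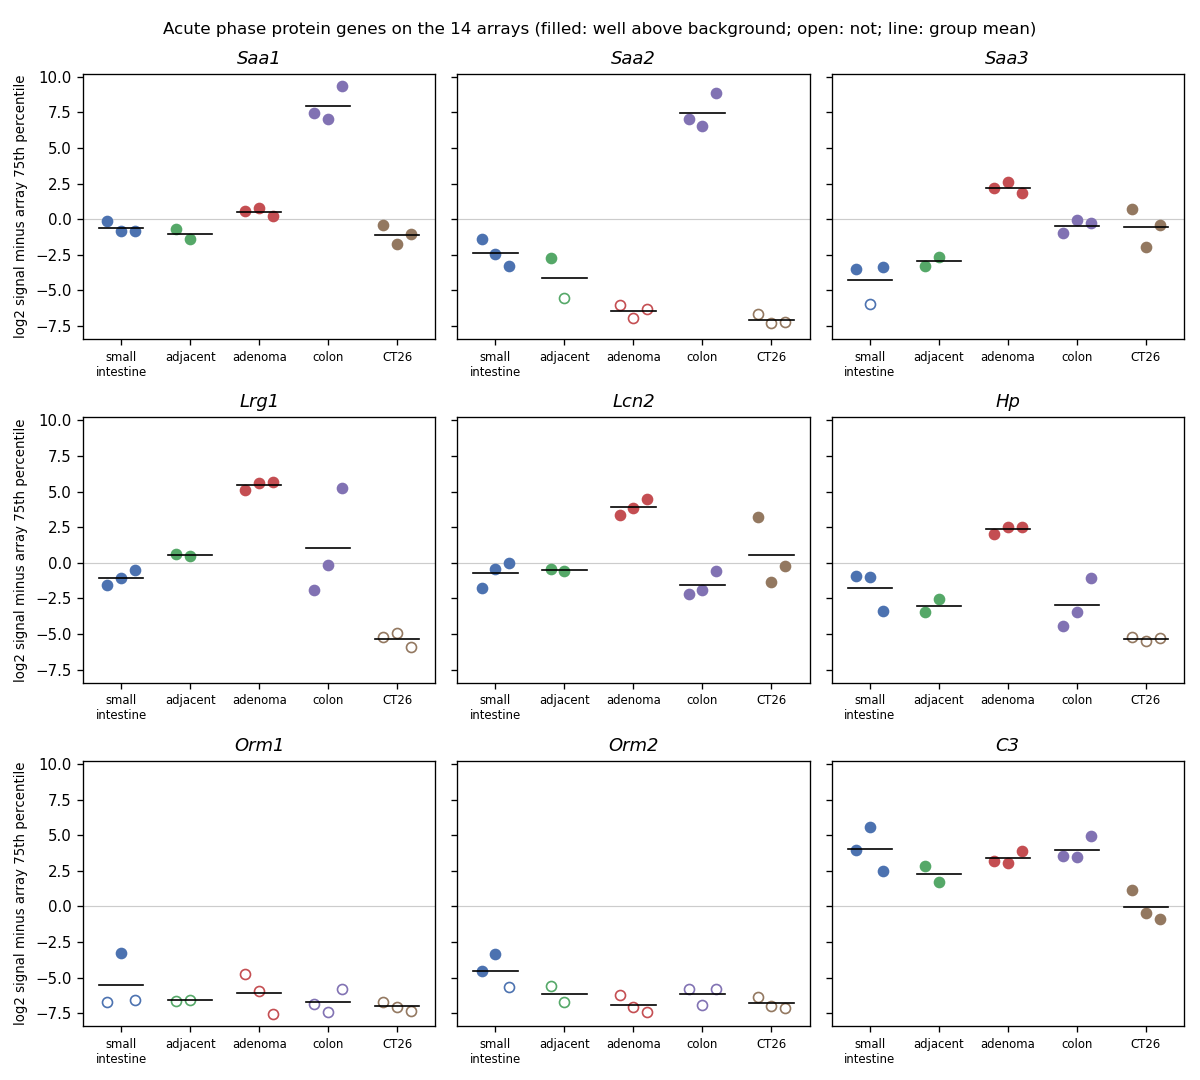
Scaled log2 signal (log2 signal minus the array's 75th percentile, vertical axis) of the 9 genes on each array, by group; filled points were well above background, open points were not, and lines are group means. *Saa1* and *Saa2* lie between 6.55 and 9.38 on all colon arrays, whereas *Lrg1* lies between 5.12 and 5.69 in adenomas and at 5.23 on colon replicate 3.

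Serum amyloid A 1 and 2 are the major acute phase apolipoproteins of mouse plasma. *Saa1* had scaled signals of 7.49, 7.04 and 9.38 on colon replicates 1, 2 and 3. In small intestine it measured -0.15, -0.80 and -0.84, in adjacent tissue -0.71 and -1.41, in adenomas 0.57, 0.79 and 0.26, and in CT26 cells -0.43, -1.76 and -1.06. Every colon array was thus far above every other array, and adenomas lay above the 3 remaining groups, which overlapped with their neighbours in the order of means. The mean in colon was 379-fold that of small intestine, 532-fold that of CT26 and 172-fold that of adenomas, which restates how the gene was picked. These folds were 233, 327 and 106 without colon replicate 3.

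*Saa2* had the same colon pattern and a different one elsewhere. Its colon values were 7.03, 6.55 and 8.87, those of small intestine -1.39, -2.45 and -3.26, and those of adjacent tissue -2.75 and -5.53, of which only the former was well above background. Adenomas gave -6.03, -6.96 and -6.29 and CT26 cells -6.69, -7.25 and -7.19, with no array of either group well above background. *Saa2* was therefore measured in healthy small intestine on 3 of 3 arrays and in adenomas on none. Colon exceeded adenomas at least 5940-fold and CT26 cells at least 6937-fold. These bounds set the mean of the bright group against the lowest signal that counted as well above background on each dim array. These and all later bounds of this kind hold for the subtraction used here alone. In the authors' table the log2 values of *Saa2* were 16.33 to 17.87 in colon, 6.23 to 6.39 in adenomas and 6.08 to 6.13 in CT26 cells, a smaller difference. Without colon replicate 3 the bounds were 3675-fold and 4293-fold, and the colon means of *Saa1* and *Saa2* were 7.27 and 6.79, so both genes were high on the arrays that carried little of the enterocyte markers as well.

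Serum amyloid A 3, unlike its relatives, is made mainly outside the liver, by macrophages, adipocytes and epithelium. Its highest group was adenoma. *Saa3* measured 2.19, 2.65 and 1.84 in adenomas, -0.99, -0.09 and -0.26 in colon, and 0.75, -1.96 and -0.44 in CT26 cells. Adjacent tissue gave -3.26 and -2.65, and small intestine -3.49, -5.96 and -3.33, the middle value not being well above background. Adenomas did not overlap with any other group, and colon and CT26 cells overlapped with each other.

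*Lrg1* encodes leucine-rich alpha-2 glycoprotein, a secreted protein that binds endoglin and modulates TGF-beta signalling in vessels. *Lrg1* measured 5.12, 5.64 and 5.69 in adenomas, 0.60 and 0.49 in adjacent tissue and -1.59, -1.06 and -0.50 in small intestine. The colon arrays spread widely, at -1.90, -0.13 and 5.23, and the last of these, colon replicate 3, fell inside the adenoma range. CT26 cells gave -5.18, -4.92 and -5.88, none well above background. The adenoma mean was 92.7-fold that of small intestine and 30.6-fold that of adjacent tissue, which restates how the gene was picked. The colon mean was 1.07 with and -1.01 without colon replicate 3, beside -1.05 in small intestine.

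*Lcn2*, which encodes lipocalin 2, measured 3.34, 3.88 and 4.46 in adenomas, -0.43 and -0.55 in adjacent tissue, -1.75, -0.44 and 0.00 in small intestine and -2.21, -1.92 and -0.56 in colon. In CT26 cells it measured 3.22 on replicate 1 but -1.33 and -0.26 on the others. The adenoma arrays lay above every other array, with CT26 replicate 1 the nearest. *Hp*, which encodes haptoglobin, the plasma carrier of free haemoglobin, measured 2.06, 2.51 and 2.49 in adenomas and -3.44 and -2.57 in adjacent tissue. It measured -0.90, -0.996 and -3.35 in small intestine and -4.46, -3.42 and -1.08 in colon, and was not well above background on any CT26 array. Adenomas again lay above every other array, and the other tissues overlapped.

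*C3*, the central protein of complement, was bright in all tissues and dimmer in CT26 cells. Small intestine gave 3.97, 5.58 and 2.51, adjacent tissue 2.84 and 1.73, adenomas 3.18, 3.02 and 3.92, colon 3.53, 3.46 and 4.98, and CT26 cells 1.19, -0.44 and -0.91. The 4 tissue groups overlapped in the order of their means, except that adenomas lay above both adjacent arrays, whereas every CT26 array lay below every tissue array. *Orm1* and *Orm2* encode orosomucoids, abundant liver glycoproteins. *Orm1* was well above background on 1 of 14 arrays, small intestine replicate 2 (-3.26), and *Orm2* on 2 of 14, small intestine replicates 1 (-4.53) and 2 (-3.35). Neither gene entered any test, which required all arrays of at least 1 group to be well above background.

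Adenomas were compared with healthy small intestine to ask which of these genes differ between the tumour and the normal tissue of that organ. Of the 8 genes free for this test, *Saa3*, *Lcn2* and *Hp* rose and *Saa2* fell, 2 did not pass and 2 were not tested. A gene was called when its log2 fold change was at least 1.2 in size and its limma adjusted p at most 0.01. Over all 29539 probes tested, 10.9% were called higher and 10.9% lower. *Saa3* rose by 6.49 on the log2 scale (SE 0.68, limma adjusted p = 0.00049). *Lcn2* rose by 4.62 (SE 0.49, limma adjusted p = 0.0005). *Hp* rose by 4.10 (SE 0.63, limma adjusted p = 0.0022). *Saa2* fell, with a fitted change of -4.06 (SE 0.48, limma adjusted p = 0.00077). The size of that fall moved with the handling of background, since it was -1.38 in the authors' table and -1.675 with normexp correction, and the bound of at least 6.43-fold holds for the subtraction used here alone. *Saa2* was above background on 0 of 3 adenoma arrays and entered the test through small intestine alone. *Saa3*, above background on 2 of 3 small intestine arrays, entered through adenomas alone. Both thus entered through the group where they were higher, so the count of calls is only a description.

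*Saa1* reached a limma adjusted p of 0.0088 but a log2 fold change of 1.13 (SE 0.25), under the threshold, and it was past both without small intestine replicate 1 (1.36). *C3* had a change of -0.65 (limma adjusted p = 0.47). The call of *Hp* was lost without adenoma replicate 2 (limma adjusted p = 0.013) or adenoma replicate 3 (0.0101). The median of all probes in this comparison was -0.15, and the 3 rises are far above that shift.

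**Figure D2:**
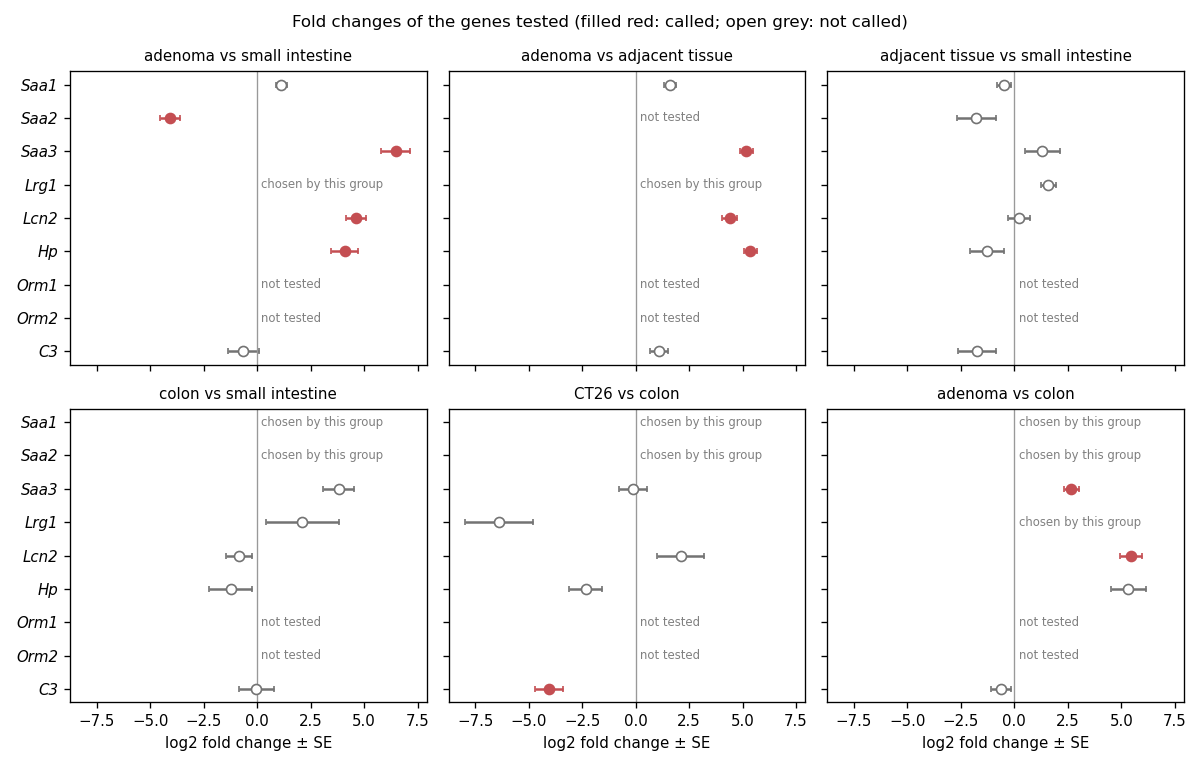
Log2 fold change (horizontal axis, bars are standard errors) of each gene in the 6 comparisons; filled red points were called at a size of 1.2 and a limma adjusted p of 0.01, open grey points were not. Genes chosen by a group of the comparison and genes too dim to test carry words in place of points; *Saa3* and *Lcn2* are called in all 3 adenoma comparisons.

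Adenomas were also compared with adjacent tissue from the same mouse. *Saa3*, *Lcn2* and *Hp* rose here too, 3 of the 8 free genes, whereas 2.27% of all 29734 probes were called higher and 1.71% lower. Adenoma arrays enter both comparisons, so the repeats are not independent. *Saa3* rose by 5.18 (SE 0.30, limma adjusted p = 0.0018), *Lcn2* by 4.39 (SE 0.33, limma adjusted p = 0.0031) and *Hp* by 5.36 (SE 0.31, limma adjusted p = 0.0018). *Saa1* differed by 1.60 (limma adjusted p = 0.017) and *C3* by 1.09 (limma adjusted p = 0.12), neither past the thresholds, and *Saa2* was too dim to test. The 3 calls were all lost without adenoma replicate 2 (limma adjusted p of 0.027 to 0.035) or adenoma replicate 3 (0.0106 to 0.0116), that of *Saa3* also without adenoma replicate 1 (0.013), and that of *Lcn2* without adjacent tissue replicate 1 (0.0104). The call of *Lcn2* was also lost with slide as a block (0.0104), with no filter on dim probes (0.012) and with all 5 groups in a fit (0.041).

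Adjacent tissue was compared with healthy small intestine to ask whether non-tumour mucosa of the *Apc* Min/+ mouse already differs. None of the 9 genes was called. Among 28833 probes 0.00694% were called higher and 0% lower by limma, with 8748 at an unadjusted p under 0.05, so this comparison called almost nothing. *Lrg1* was nearest, since both adjacent arrays lay above all 3 small intestine arrays and the log2 fold change was 1.60 (SE 0.35, limma adjusted p = 0.064). *Saa3* also did not overlap, at 1.31 (limma adjusted p = 0.32). *Saa2*, *Hp* and *C3* had changes of -1.77, -1.25 and -1.73, with overlapping groups and limma adjusted p of 0.24, 0.32 and 0.24.

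Colon was compared with small intestine for the 7 genes not picked by their colon level. None was called, beside 0.00366% of 27302 probes called higher and 0.00366% lower, with 6414 probes at an unadjusted p under 0.05. *Saa3* was above small intestine on 3 of 3 colon arrays and had a change of 3.82 (SE 0.72, limma adjusted p = 0.070). It was called in a fit of all 5 groups (limma adjusted p = 0.0065). *Lrg1* had a change of 2.12 with a standard error of 1.69 (limma adjusted p = 0.48), and of 0.037 without colon replicate 3. *Lcn2*, *Hp* and *C3* had changes of -0.83, -1.24 and -0.03, all with overlapping groups. Without colon replicate 3 the changes were 3.72 for *Saa3* (limma adjusted p = 0.026), -1.34 for *Lcn2*, -2.19 for *Hp* and -0.53 for *C3*, none of them called.

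CT26 cells were compared with colon as the normal organ of that tumour. *C3* fell by 4.04 (SE 0.64, limma adjusted p = 0.0014), the only call among the 7 free genes, where 21.5% of 29398 probes were called higher and 14.9% lower. It fell by 3.55 without colon replicate 3 (limma adjusted p = 0.0021). The second *C3* probe gave a change of -3.38 (limma adjusted p = 0.0014). The median of all probes was 0.37 here. *Lrg1* and *Hp*, both not above background in CT26 cells, were not called (limma adjusted p of 0.012 and 0.037). Their differences were at least 73.3-fold and 4.05-fold with colon replicate 3 and at least 17.3-fold and 2.09-fold without it. These bounds hold for the subtraction used here alone, and the differences were -3.95 and -0.86 on the log2 scale in the authors' table. *Lrg1* was called without colon replicate 3 (-4.31, limma adjusted p = 0.00062) and without colon replicate 1 (-7.88, 0.0039), which also brought *Hp* past the thresholds (0.0099). *Lcn2* differed by 2.11 (limma adjusted p = 0.14) and *Saa3* by -0.11 (0.91), both with overlapping groups. Without colon replicate 3 they differed by 2.61 and -0.012, and *Lcn2* by 0.77 without CT26 replicate 1.

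CT26 replicate 1 carried the highest signal of its group for all 4 genes that were well above background on every CT26 array, *Saa1*, *Saa3*, *Lcn2* and *C3*. Its *Lcn2* exceeded the other CT26 arrays by more than 3 on the log2 scale. *Il6*, the main inducer of the hepatic response, measured 1.84 on this array and -3.58 and -2.30 on the others. *Il11*, a cytokine of the same receptor family, measured 2.95 against -0.15 and 0.53. The part of these cytokines in the signals of replicate 1 was not tested.

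Adenomas were last compared with colon, over the 6 genes not picked by either tissue. *Saa3* rose by 2.67 (SE 0.33, limma adjusted p = 0.0071) and *Lcn2* by 5.46 (SE 0.51, limma adjusted p = 0.0033), while 1.98% of 29174 probes were called higher and 1.44% lower. *Hp* differed by 5.34 and did not overlap, but missed the threshold (limma adjusted p = 0.013). Without colon replicate 3 it was called as well, at 6.30 (limma adjusted p = 0.00041). The calls of *Saa3* and *Lcn2* were both lost without any single one of the other 5 arrays (limma adjusted p of 0.012 to 0.047) and with slide as a block (0.027 and 0.016), at fold changes of 2.40 to 2.87 and 5.13 to 5.74. Without colon replicate 3 the rises of *Saa3* and *Lcn2* were 2.76 and 5.96 (limma adjusted p of 0.0043 and 0.00046). *Lrg1*, with no test, had a mean 21.4-fold that of colon with colon replicate 3, which lay inside the adenoma range, and 90.4-fold without it.

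Markers of neutrophils and inflammatory monocytes had their highest median in the tissue where *Saa3*, *Lrg1*, *Lcn2* and *Hp* were highest, but their summed signal did not. The median of 11 such markers lay between -2.13 and -1.01 in adenomas, -3.43 and -2.61 in adjacent tissue, -4.90 and -3.76 in small intestine, -6.56 and -3.86 in colon and -7.08 and -6.38 in CT26 cells. In adenomas 9 to 10 of the 11 were well above background and *Cxcr2* was not on any array, and in small intestine *S100a8*, *Cxcr2*, *Mmp8* and *Ngp* never were. The log2 of the list's summed signal was 5.82 to 5.99 in adenomas, 5.83 to 6.07 in adjacent tissue, 5.02 to 5.78 in small intestine, 5.42 to 5.90 in colon and 5.89 to 6.397 in CT26 cells. *S100a8*, a calcium-binding protein abundant in neutrophils, was not above background in small intestine and at least 12.4-fold brighter in adenomas. *Camp*, *Trem1* and *Csf3r* of the same list had changes of -0.58, -0.31 and 0.12, none of them called. In CT26 cells 4 of the 11 were above background, among them *S100a8* (mean -3.61) on 3 of 3 arrays, and *S100a9*, *Ltf* and *Ngp* were not. The part of these cells in the adenoma and CT26 signals was not tested.

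Other marker lists also set adenomas apart from small intestine. The median of 8 endothelial markers was -0.48 to 0.07 in adenomas and -2.55 to -2.33 in small intestine, and that of 8 fibroblast markers 2.43 to 2.47 against -0.82 to 1.53. The log2 of the summed signal of 8 pancreatic acinar markers was 3.23 to 3.93 against -0.71 to -0.03. The median of the 12 enterocyte markers was lower, at 4.19 to 4.89 against 5.91 to 7.42. The part of these cells in the members' signals was not tested either. In tissue samples more cells of a type and more RNA per cell cannot be told apart.

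**Figure D3:**
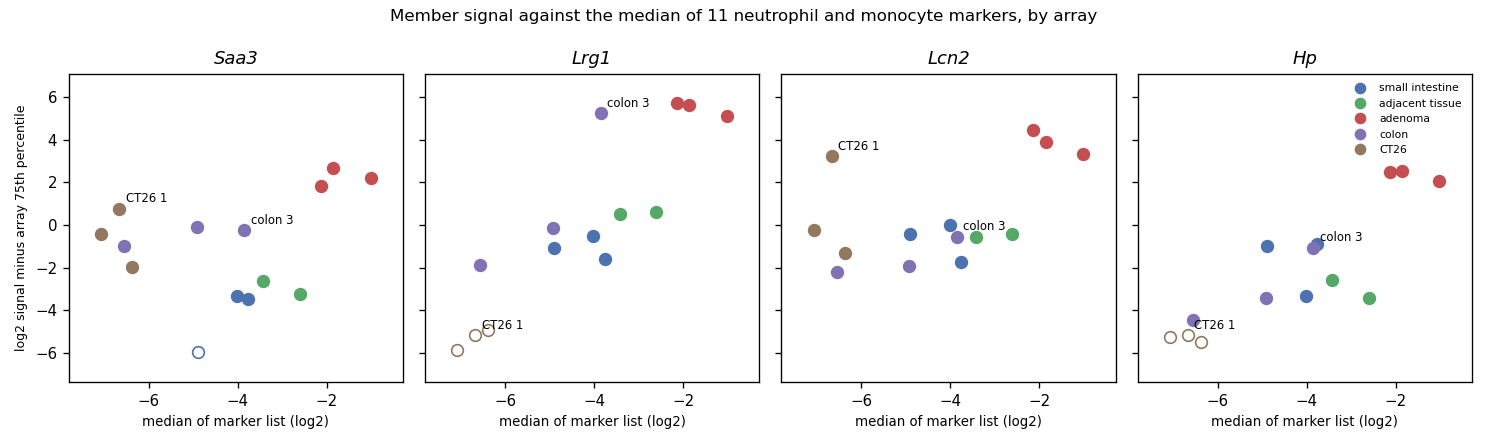
Scaled log2 signal of 4 genes (vertical axis) against the median scaled log2 signal of 11 neutrophil and monocyte markers (horizontal axis); each point is an array, coloured by group, open where the gene was not well above background. Adenomas hold the highest marker medians, -2.13 to -1.01, and colon replicate 3 has an *Lrg1* signal of 5.23 at a marker median of -3.86.

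Markers of hepatocytes, the usual source of these proteins, also had their highest median in adenomas. The median of 9 markers lay between -0.44 and 0.91 in adenomas and between -2.81 and -1.34 in small intestine and adjacent tissue. The log2 of their summed signal went the other way, at 3.75 to 4.03 in adenomas against 4.71 to 6.99 in small intestine. *Fgb*, the fibrinogen chain made by liver, was not well above background on any array of these groups. In adenomas 8 of the 9 markers were above background, *Alb* and *Ttr* among them, which also belong to the acute phase list below. The part of such cells in the adenoma signals was not tested.

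*C3* and the adipocyte markers put the arrays of small intestine in the same order. There the median of 10 adipocyte markers was 0.44, 2.45 and -4.02 on replicates 1, 2 and 3, and *C3* was 3.97, 5.58 and 2.51 in the same order. Adipocytes were not alone in this. The medians of fibroblast (0.47, 1.53 and -0.82), mesothelium (-2.59, -0.86 and -3.64) and endothelial markers (-2.36, -2.33 and -2.55) ranked these arrays alike. The median of the epithelial markers did not (8.15, 7.37 and 7.56). Colon replicate 3 had the highest adipocyte median of its group (0.36, against -2.76 and -2.18) and the highest *C3*. On colon replicates 1 and 2 *C3* was 3.53 and 3.46, the reverse of the order of their adipocyte medians. *Adipoq*, the fat hormone adiponectin, was 1.51 on small intestine replicate 2 and -6.09 on replicate 3. The array with the most adipocyte signal was also the only array with *Orm1* above background. Without small intestine replicate 2 the change of *C3* between adenomas and small intestine was 0.13 in place of -0.65. The part of fat cells or of these other cells in the values was not tested.

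**Figure D4:**
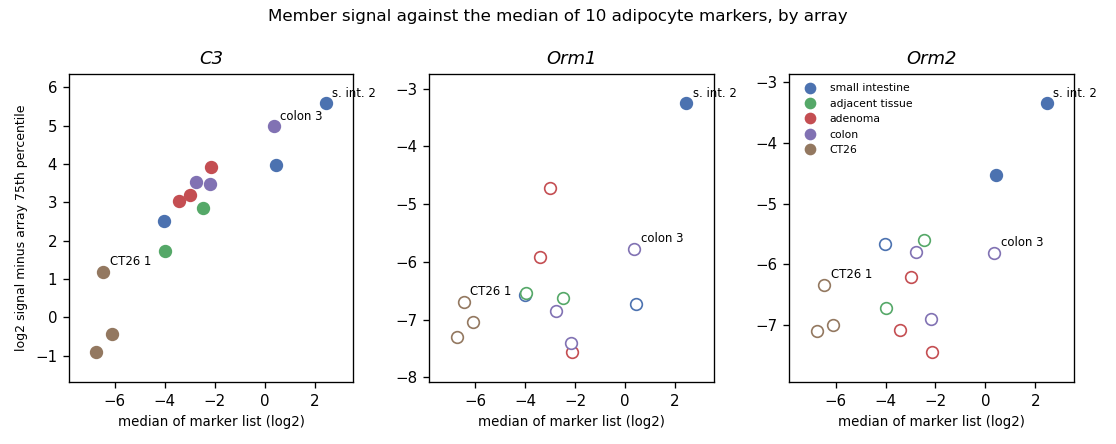
Scaled log2 signal of *C3*, *Orm1* and *Orm2* (vertical axes, one scale per panel) against the median scaled log2 signal of 10 adipocyte markers (horizontal axis); each point is an array, coloured by group, open where the gene was not well above background. Small intestine replicate 2 lies at the upper right of all 3 panels, with a marker median of 2.45 and a *C3* signal of 5.58.

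The inducers of the response were looked at next. Of 12 cytokines listed, 5 were bright enough to test between adenomas and small intestine and 4 rose, where 10.9% of all probes were called higher and 10.9% lower. Of these 5, 3 entered the test through adenomas alone, which favours rises, so the count is only a description. *Il6* was not well above background in small intestine, adjacent tissue or colon and measured 0.14, -0.70 and -1.71 in adenomas. It was at least 13.7-fold higher than in small intestine (limma adjusted p = 0.0002) and at least 13.2-fold higher than in adjacent tissue (0.0058). *Il11* measured 3.105, 3.16 and 1.75 in adenomas and -3.35, -3.79 and -2.30 in small intestine, a rise of 5.82 (SE 0.50, limma adjusted p = 0.00024). *Il1b* rose by 4.50 (SE 0.19, limma adjusted p = 4.8e-05) and, against adjacent tissue, by 2.61 (0.0046). *Il22*, which drives *Saa1* and *Saa2* in epithelium, was above background on 1 colon array, 1 small intestine array and the 3 CT26 arrays alone, and was not tested between tissues.

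In the comparison with adjacent tissue 3 of 5 cytokines rose (2.27% of all probes were called higher), and with colon 2 of 5 (1.98%), *Il11* by 6.46 (SE 0.48, limma adjusted p = 0.002) and *Il6* at least 13.8-fold (0.0037). They were 6.51 and at least 19.0-fold without colon replicate 3. Against adjacent tissue 2 of the 5 entered through adenomas alone and gave 1 of the rises. Against colon 4 of the 5 did and gave both rises, so these counts are only a description. CT26 cells exceeded colon in *Il11*, by 4.90 (SE 0.77, limma adjusted p = 0.0014), and in *Il6*, at least 9.16-fold (0.0090), 2 of 4 tested where 21.5% of all probes were called higher. Of these 4, 3 entered through CT26 cells alone and gave both rises, so this count too is only a description. The *Il6* bound was 3.04-fold without CT26 replicate 1, and without colon replicate 3 *Il6* was no longer called (limma adjusted p = 0.011). None of the 3 cytokines tested was called between adjacent tissue and small intestine or between colon and small intestine.

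**Figure D5:**
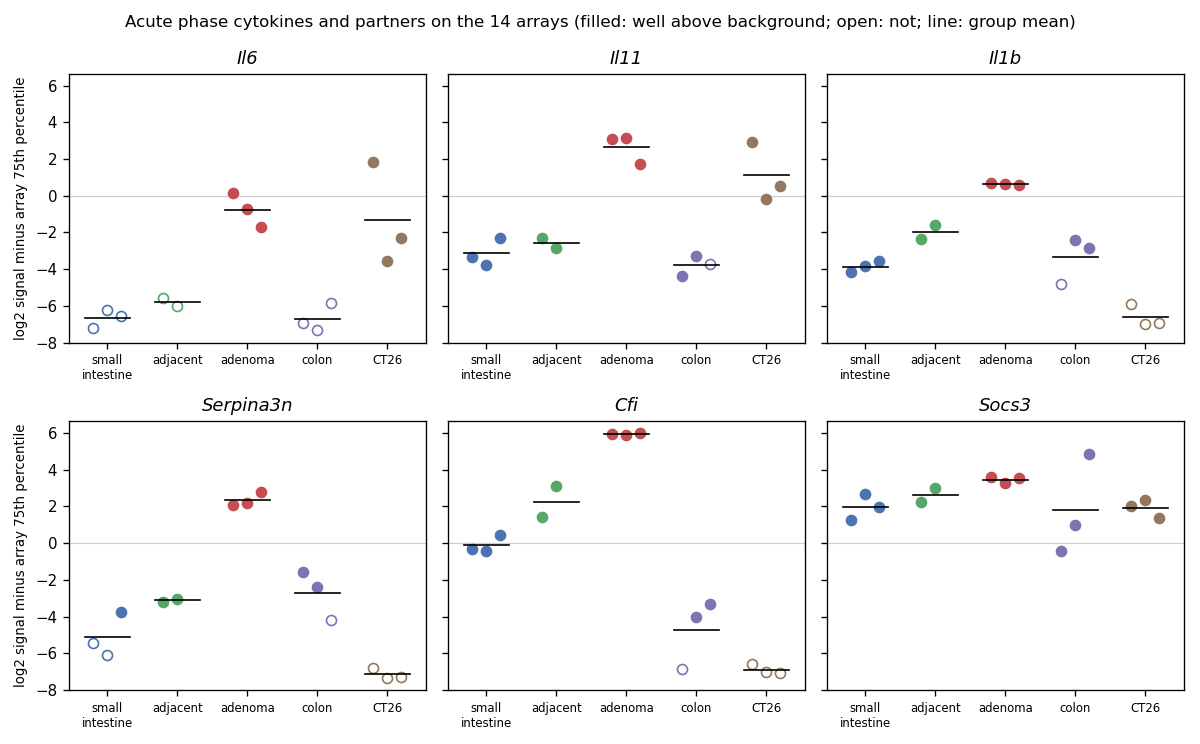
Scaled log2 signal (vertical axis) of *Il6*, *Il11*, *Il1b*, *Serpina3n*, *Cfi* and *Socs3* on each array, by group; filled points were well above background, open points were not, and lines are group means. *Il6* is above background in adenomas (-1.71 to 0.14) and CT26 cells (-3.58 to 1.84) alone, and *Socs3* is highest on colon replicate 3 (4.88).

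Among 33 other acute phase proteins 23 were tested between adenomas and small intestine, and 13 rose and 3 fell, where 10.9% of all probes were called in each direction. Of the 23, 9 entered through adenomas alone and gave 8 of the rises, and the 14 measured on every array of both tissues gave 5 rises and 3 falls. *Serpina3n*, a protease inhibitor, rose by 7.43 (SE 0.56, limma adjusted p = 0.00016), at 2.07, 2.19 and 2.77 in adenomas against -5.42, -6.09 and -3.78. *Alb*, encoding albumin, which falls in plasma during the response, rose by 5.07 (SE 0.64, limma adjusted p = 0.0010). *Serpina3n* and *Alb* were each above background on 1 of 3 small intestine arrays. Both entered through adenomas alone, where they were high, so their p-values here are only a description. The 3 that fell were *C2* (-2.96), *Cfb* (-2.58) and *Agt* (-1.22), of which *C2* and *Cfb* encode proteases of the complement convertases that cleave C3. Against adjacent tissue 4 of 23 rose and 1 fell (2.27% and 1.71% of all probes), led by *Serpina3n* (5.46, limma adjusted p = 0.0012) and *Trf*, transferrin (3.73, 0.0038), with *C2* the lower (-1.38, 0.0090). Against colon 3 of 23 rose (1.98% of all probes), among them *Serpina3n* (5.06, 0.0083, and 4.31 without colon replicate 3, an array on which it was not above background). Against adjacent tissue 5 of the 23 entered through adenomas alone and gave 1 of the rises. Against colon 10 of the 23 did and gave 2 of the rises. Between CT26 cells and colon 4 rose and 6 fell of 14, where 21.5% of all probes were called higher and 14.9% lower. Of these 14, 1 entered through CT26 cells alone and gave 1 of the rises, and 2 entered through colon alone and gave 2 of the falls. *Cp* (3.88) and *Mt2* (3.58) rose, by 4.05 and 3.596 without colon replicate 3. *Cfb* measured 3.46 to 5.04 in colon and was above background on 1 of 3 CT26 arrays (-3.92), and it was among the genes called lower.

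The receptors and signal mediators did not move in 1 direction. Between adenomas and small intestine 4 of 31 rose and 7 fell, where 10.9% of all probes were called in each direction. *Il17rc* fell by 2.19 (SE 0.20, limma adjusted p = 0.0003) and *Il22ra1*, the receptor chain for interleukin-22, fell by 1.69 (limma adjusted p = 0.00092). *Stat3* differed by -0.10 (limma adjusted p = 0.65), *Nfkbiz* by -0.36 (0.17) and *Socs3*, the feedback inhibitor induced by STAT3, by 1.498 (0.011), none of them called. Against adjacent tissue and against colon the only call among them was *Il22ra2*, which encodes a soluble decoy receptor for interleukin-22, and it fell by 3.27 (SE 0.23, limma adjusted p = 0.0026) and by 4.02 (SE 0.45, limma adjusted p = 0.0055). Against colon its change was -4.30 without colon replicate 3. In CT26 cells 4 of 29 rose and 7 fell, beside 21.5% and 14.9% of all probes, and *Il22ra2* was at least 43.7-fold lower. Of these 29, 4 entered through colon alone and gave 4 of the falls. *Stat3* fell in CT26 cells by 2.13 (SE 0.48, limma adjusted p = 0.0075), and by 1.62 without colon replicate 3. Its call was lost without CT26 replicate 1 (-2.33, limma adjusted p = 0.018). A second *Stat3* probe changed by -1.94 and was not called (limma adjusted p = 0.016). On the colon arrays *Socs3* measured -0.40, 0.99 and 4.88, the last on replicate 3, where *Lrg1*, *Saa1* and *Saa2* were also highest.

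Of 24 receptors and partners of the 9 proteins tested between adenomas and small intestine 9 rose and 2 fell, where 10.9% of all probes were called in each direction. Of the 24, 5 entered through adenomas alone and gave 3 of the rises. *Cfi*, the protease that inactivates C3b, measured 5.90 to 5.99 in adenomas and -0.42 to 0.45 in small intestine. It rose by 6.05 against small intestine (SE 0.25, limma adjusted p = 4.7e-05), by 3.69 against adjacent tissue (0.0087) and by 10.68 against colon (0.0025), where it was 11.39 without colon replicate 3. The 2 that fell were *Lrp1* (-1.69) and *Itgam*, a subunit of complement receptor 3 (-3.09, limma adjusted p = 0.00097). The call of *Itgam* rests on 1 probe, since its other tested probe changed by -0.81. *Hbb-b1*, a haemoglobin chain and so a ligand of haptoglobin, rose by 6.04 against colon (SE 0.18, limma adjusted p = 0.00021) and by 4.67 against small intestine (0.00025), and the former was 5.94 without colon replicate 3. Adjacent tissue and adenomas had *Hbb-b1* signals of 4.52 to 5.98, small intestine 0.50 to 2.22, and all colon arrays lay below 0.

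The next 3 receptors were picked after their values were seen to be dim or flat. *Cd163*, the haptoglobin receptor of macrophages, was not well above background on any of 14 arrays. *Fpr2*, a receptor for serum amyloid A, was above background on 1 adenoma and 1 CT26 array. *Slc22a17*, a receptor for lipocalin 2, was measured on all arrays and differed by 0.38 between adenomas and small intestine (limma adjusted p = 0.19). In CT26 cells 2 of 20 partners rose and 10 fell, beside 21.5% and 14.9% of all probes. Of these 20, 6 entered through colon alone, which favours falls, and gave 6 of the falls. *Scarb1* rose by 3.32, and *Tlr2* and *Cd55* were at least 70.8-fold and 83.6-fold lower. These values were 2.31, 140-fold and 72.5-fold without colon replicate 3. No partner was called between adjacent tissue and small intestine or between colon and small intestine. Without colon replicate 3 some partners were called in the latter comparison. Among them *Tlr2* was higher in colon (4.44, limma adjusted p = 0.0018) and *Cfi* lower (-5.35, 0.0083).

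The genes most like each of the members were found by Pearson's r of the scaled signal over the 14 arrays, among 32292 probes. They are a description, and the arrays share groups, so that r mostly restates group means. *Saa1* was closest to *Bnipl* (0.974), *Glycam1* (0.938) and *Tat* (0.934), and *Saa2* was like *Golgb1* (0.959) and *Prdm6* (0.948). *Lrg1* was closest to *Prrg4* (0.972), *Plin5* (0.968) and *Slc6a13* (0.951), *Lcn2* to *Col11a2* (0.954), *Itga2b* (0.928) and *Crem* (0.918), and *Hp* to *Nptx2* (0.967), *Trpv4* (0.963) and *Asz1* (0.937). *Saa3* had weaker likenesses, with *Shf* (0.897), *Eif4g3* (0.880) and *Cd44* (0.877). *C3* was closest to *Car3* (0.917), a carbonic anhydrase of fat and muscle that is also on the adipocyte list, then *Rspo1* (0.912) and *Bach2* (0.911). No 2 members had the same gene among their closest 3.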

How the data were processed

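RNA of 14 samples was hybridized to single-colour Agilent SurePrint G3 Mouse 8x60K arrays. The authors deposited scanner files (Feature Extraction 10.7.3.1), in which the signal used is an intensity after background subtraction. A deposited series table gives normalized log2 values of the authors, by a method not given in the sources used here. This table also holds 21 columns of the authors' own comparisons (fold changes and p-values), which were not used, nor were 28 further columns per sample.

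Control and outlier spots were left out, log2 was taken, the array's 75th percentile was subtracted and repeated spots averaged. Gene names came from RefSeq accessions for 26582 of 55681 probes (GRCm38.p6, names only). Where a gene had several probes, the brightest on average stood for it. Groups came from the sample labels. Each pair was fitted on its own arrays by lmFit and eBayes of limma 3.58.1 (R 4.3.3), after a check on simulated data. The check required changed probes to be recovered only where the simulated spread was cut to a small value. At the real spread it required a small median error and few false calls, but no share recovered. Probes entered if all arrays of 1 of the groups had them well above background, with Benjamini-Hochberg adjustment. The number of arrays limits precision, and p-values measure the spread between these samples.

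The 9 genes, the marker lists and the pathway lists were chosen with earlier results of these data known. Pathway genes were named when among the 5 largest called changes in a direction, plus *Il6*, *Il1b*, *Il22*, *Stat3*, *Socs3* and *Nfkbiz*. Some genes that this rule or the search for like patterns would name are not reported here. The markers and array probes named beside a result, and *Agt*, *Lrp1* and the receptors, were added after their values were seen. The listed genes *Ly6c2*, *Ms4a12* and *Serpina1b* were not found by name. Alternatives were the authors' table, normexp (offset 50), quantile normalization, no filter on dim probes, all 5 groups in a fit, slide, replicate number or (added later) title number as a block, and leaving out each array.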

Additional observations from a re-analysis of the deposited data

How the results depend on the processing

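Of the 416 alternative values of single genes, 362 kept their direction and their side of the thresholds, 12 passed them, 31 no longer did and 11 changed sign. All sign changes were of genes that were not called. *C3* went to 0.13 between adenomas and small intestine without small intestine replicate 2 (-1.40 to 0.13 on leaving out each array). *Lcn2* went to -0.27 between adjacent tissue and small intestine without small intestine replicate 1. *C3* between colon and small intestine went to 0.17 in the authors' table, 0.21 with quantile normalization, 0.75 without small intestine replicate 2, 0.20 without colon replicate 1 and 0.23 without colon replicate 2 (-0.79 to 0.75 on leaving out each array). *Saa3* between CT26 cells and colon went to 0.043 in the authors' table, 0.07 without colon replicate 2 and 0.60 without CT26 replicate 2 (-0.75 to 0.60). Over the genes free for each test, the count called was 4 in adenomas against small intestine (3 to 5 on leaving out an array). It was 3 against adjacent tissue (0 to 4) and 2 against colon (0 to 3). Against colon it was 1 with no filter, 0 with slide as a block, and 1 with the replicate block. For CT26 cells against colon it was 1, with 1 to 3 on leaving out an array and 2 with all 5 groups in a fit, which also gave 1 for colon against small intestine in place of 0. Pathway genes called in adenomas against adjacent tissue went from 12 to 1 with no filter, 4 with all 5 groups, 2 with slide as a block, 4 with the replicate block and 0 to 14 on leaving out an array. Against colon they went from 9 to 19, 2 with slide as a block, 1 with the replicate block and 1 to 20. With all 5 groups 2 pathway genes were called between adjacent tissue and small intestine and 6 between colon and small intestine, in place of 0, and the latter had 0 to 7 on leaving out an array, the 7 without colon replicate 3. In adenomas against small intestine 42 were called (30 to 45), where the main fit called 10.9% of all probes higher and 10.9% lower. In CT26 cells against colon 35 were called (24 to 41), where it called 21.5% higher and 14.9% lower. For both comparisons the numbers tested are given list by list above. Shares for the other comparisons stand with their results above. The cause of these changes in count was not tested. Arrays with the same replicate number had deviations from their group means that correlated between -0.32 and 0.29. The titles number the adjacent arrays 2 and 3, and by these numbers they correlated at 0.036 and 0.026 with the adenomas and at -0.14 and 0.21 with small intestine, so neither numbering is taken to pair the arrays. A replicate block by the numbers in the titles was chosen after seeing the data. In adenomas against adjacent tissue it called none of the genes free for that test and 0 pathway genes. There *Saa3*, *Lcn2* and *Hp* had limma adjusted p of 0.076 at fold changes of 5.20, 4.66 and 5.50. With the same block *Lcn2* went to -0.27 between adjacent tissue and small intestine. Adenoma replicate 1 has no partner by that numbering and does not enter the fold changes against adjacent tissue. Signal over background limits *Orm1*, *Orm2* and, in adenomas and CT26 cells, *Saa2*.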

Other observations

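The closest relatives of the 9 genes were almost silent. *Saa4*, the constitutive serum amyloid A gene of the same cluster, exceeded the background on a lone small intestine array (1 of 14 in all), with group means of -5.66 to -5.27. *Orm3* was above background on 1 of 3 CT26 arrays (-3.24) and on none of the tissues.

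Other innate genes had levels that set the tissues apart in another order, and they were chosen after their values were seen. Their p-values are therefore only a description. *Hamp*, which encodes the iron hormone hepcidin, measured -1.017 to -1.005 on the 3 adenoma arrays. It was not above background in small intestine and entered the test through adenomas alone. The rise was at least 11.5-fold (limma adjusted p = 9.1e-05). *Lbp*, the carrier of lipopolysaccharide, measured 0.65 to 1.15 in adenomas, -1.39 and 0.19 in adjacent tissue, -4.23 to -3.08 in small intestine and -2.64 to -2.14 in colon. It rose by 4.51 against small intestine and by 3.34 against colon (limma adjusted p of 0.00013 and 0.0018), the latter 3.48 without colon replicate 3. *Cd14*, the receptor that takes lipopolysaccharide from *Lbp*, was brightest in colon, at 1.959 to 3.14 against -0.73 to 0.53 in small intestine, a change of 2.79 that was not called (limma adjusted p = 0.056, and 0.015 at 2.76 without colon replicate 3). The 3 colon arrays lay above all adenoma arrays for *Cd14* (1.01 to 1.51).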
